A study of Homo sapiens with 13 samples.

Results

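The genes EZH2, INTS3, CASP8, BCOR, ARMC10, FYB and GNAS have been reported as mis-spliced in cells carrying mutant SRSF2. They were looked up by symbol, and all 7 were among the 58581 genes of the RNA-seq table, while 3 of the 8100 HITS-CLIP windows carried one of these names, INTS3 or GNAS. The question was whether binding by SRSF2 or the RNA level differed at these genes between cells given the mutant and the normal factor. All samples were HEL cells, a human erythroleukemia line, stably carrying SRSF2 with the P95H change (P95H) or wild type SRSF2 (WT). HITS-CLIP recovers and sequences the RNA that ultraviolet light has linked to a protein, here through its Flag tag, and was applied to 4 P95H and 4 WT samples after 36 hours of doxycycline at 1 µg/ml. RNA-seq libraries depleted of rRNA came from 2 P95H and 2 WT samples after 48 hours of doxycycline at 1 µg/ml. Another came from 1 P95H sample labelled uninduced and listed without doxycycline. The endogenous SRSF2 gene is present in every group. The labels do not say whether the lines are clones. The replicates are called biological without a word on separate cultures, so p-values measure the spread between these samples.

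SRSF2 is a serine- and arginine-rich protein that binds short exonic enhancers and promotes inclusion of the exon. It recognises CCNG and GGNG about equally well, and the P95H change, recurrent in myelodysplastic syndromes and leukemias, is known to shift its preference toward CCNG. Exons are thereby included or skipped differently, and in EZH2 a poison exon is included whose transcript is removed by nonsense-mediated decay. For INTS3, retained introns have been described. A count per gene adds up all isoforms, so the values below measure the amount of RNA from a gene and not how it was spliced.

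The RNA-seq libraries held 38052389 to 45005605 counts, and 3 counts corresponded to 0.0667 to 0.0802 CPM, counts scaled to the library total. SRSF2 itself stood at 223 and 252 CPM in P95H and at 222 and 241 CPM in WT, against 285 CPM in the library labelled uninduced. The counts did not show a lower SRSF2 level in that library, which therefore serves as a comparison by its label only. Of 10 erythroid and megakaryocyte markers of HEL cells, 9 exceeded 1 CPM in all 5 libraries. Of 6 epithelial and fibroblast markers, all 6 were under 1 CPM in every library, and EPCAM and KRT5 had no count. Of 6 myeloid markers, 1 exceeded 1 CPM in all 5 libraries and 5 were under 1 CPM in all. Among those 5, ELANE, a granulocyte marker, had no count. Of 6 lymphoid markers, 1 exceeded 1 CPM in all 5 libraries and 5 were under it in all. Protein genes of the mitochondrial genome made up 1.38% of either replicate 1 library, against 4.30% of P95H replicate 2, 4.50% of WT replicate 2 and 4.14% of the library labelled uninduced. Differences within replicate 1 and within replicate 2 are therefore given beside each comparison.

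Differential binding was listed for INTS3 and GNAS, with 3 windows in all, and each window was higher in P95H. No window was listed for EZH2, CASP8, BCOR, ARMC10 or FYB, and no window of another gene fell within the span of any of the 7. The table holds windows past an adjusted p of 0.05 and a 2-fold change alone, so binding that did not differ is not part of it. A gene without a window is thus one at which no difference passed, not one that SRSF2 does not bind. With 2 of 7 genes, 28.6% had a window, against 20.2% of the 6323 genes whose mean CPM over the 5 libraries lay between those of FYB and GNAS, the lowest and highest of the 7. Windows higher in P95H occurred in 8.49% of those genes, and windows lower in P95H in 14% of them. Of all windows listed, 22.3% were higher in P95H. These shares give the background for counts of 2 genes and 3 windows, which are too few to set the 7 genes apart from it.

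INTS3 encodes a subunit of the Integrator complex, which cleaves the nascent transcripts of small nuclear RNAs and of paused RNA polymerase II. Its 2 windows overlapped by 4 bases and formed a single region near the 3′ end of the gene (ENSG00000143624, GRCh38, chromosome 1, 153728067 to 153774808, plus strand). In the authors' deposited table the first window, at 153772351 to 153772371 as the table gives it, stood at 2.03 CPM in P95H (SEM 1.94) and at 0.00 CPM in WT (SEM 0.00). The second window of the authors' deposited table, at 153772368 to 153772388, stood at 2.19 CPM in P95H (SEM 2.01) and at 0.01 CPM in WT (SEM 0.01). Both were thus at or near 0 in WT, and the SEM in P95H was nearly as large as the mean.

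The authors' deposited table gives INTS3 log2 changes of 7.45 (adjusted p 1.05e-10) and 6.06 (adjusted p 2.26e-10). A log2 change against a group listed at 0.00 depends on the authors' model and is not a measured ratio. Of the 1803 windows higher in P95H, 27 had a log2 change as large as the first INTS3 window and 104 as large as the second. Their height was ordinary, since 45.8% and 42.3% of those windows had a P95H mean as high or higher, and the median was 1.81 CPM. The authors assigned the first window to INTS3-001, a protein-coding transcript, and the second to INTS3-002, a transcript of the retained-intron class. Retained-intron windows were 667 of the 8100 listed, and 26.5% of them were higher in P95H. The windows share 4 bases, and no exon or intron positions were used. Whether the second window reaches into a retained intron, or the classes reflect only the transcript chosen for each window, cannot be told here. The region began 44284 bases into a gene span of 46742 bases and ended outside SLC27A3, a neighbour on the same strand that overlaps the last bases of INTS3.

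GNAS encodes the stimulatory G protein alpha subunit, which activates adenylyl cyclase, from an imprinted locus with several promoters (ENSG00000087460, GRCh38, chromosome 20, 58839718 to 58911192, plus strand). Its window, at 58905411 to 58905431, was assigned by the authors to GNAS-008, a processed transcript without a coding frame. In the authors' deposited table it stood at 0.91 CPM in P95H (SEM 0.85) and at 0.31 CPM in WT (SEM 0.16), a log2 change of 1.57 with an adjusted p of 0.0298. The means differed by less than the SEM in P95H. Among windows higher in P95H, 67.8% had a log2 change as large or larger and 80.8% a P95H mean as high or higher, so the GNAS window was among the weaker ones listed. It began 65693 bases into the gene span of 71475 bases, again toward the 3′ end.

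**Figure D1:**
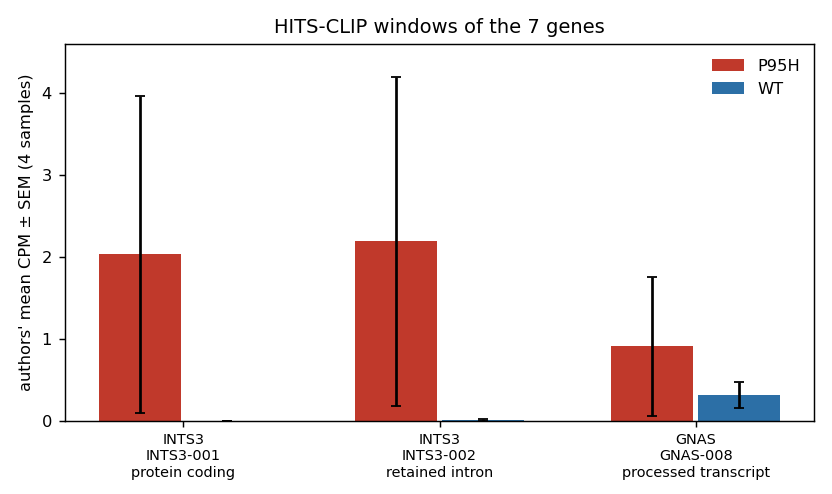
HITS-CLIP signal in the 3 windows of INTS3 and GNAS, in the authors' mean CPM on the y axis, for P95H (red) and WT (blue). Error bars are the authors' SEM, and in P95H they reach nearly to 0 in each window, while WT is at 0.00 and 0.01 CPM in INTS3 and at 0.31 CPM in GNAS.

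The spread between P95H samples was large in all 3 windows. The SEM was 0.956 and 0.918 of the mean in the INTS3 windows and 0.934 of it in the GNAS window. An SEM equal to the mean arises when a single sample holds all of the signal. Taking the SEM as the SD over 4 samples divided by the square root of their number, and allowing for rounding, the highest P95H sample held at least 92.8% and 87.6% of the summed CPM in the INTS3 windows. For GNAS it held at least 89.0%. Which sample this was is not given in the table. Across windows higher in P95H the median of this ratio was 0.717, and 18.4% had a ratio of 0.918 or more, the lowest of the 3. Among the 148 windows with at most 0.01 CPM in WT, the median was 0.854. The authors' adjusted p for INTS3 thus accompanies a signal carried for the most part by 1 of 4 P95H samples.

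**Figure D2:**
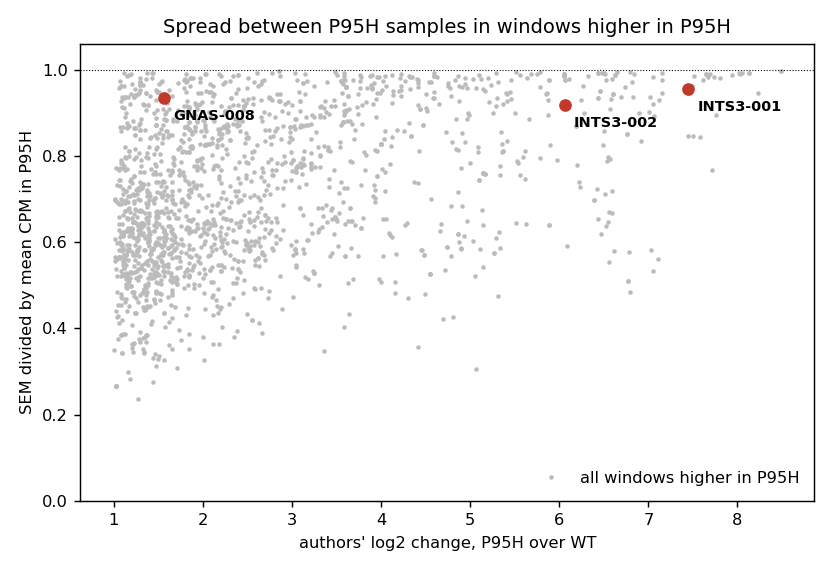
Each point is 1 of the 1803 windows higher in P95H, with the authors' log2 change of P95H over WT on the x axis and the SEM divided by the mean CPM in P95H on the y axis. The dotted line at 1 marks the limit reached when 1 sample holds all the signal, and the INTS3 and GNAS windows (red) lie between 0.918 and 0.956, above the median of 0.717.

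RNA from all 7 genes was detected well above the floor in every library, from 790 counts for FYB in WT replicate 2 to 22089 for GNAS in WT replicate 1. None of the 7 passed edgeR's quasi-likelihood test in P95H against WT, fitted on group alone over 22007 genes with Benjamini-Hochberg adjustment. That test called 0 of all genes (0%), although 227 had an unadjusted p under 0.05. DESeq2 likewise called 0, and there 100 genes had an unadjusted p under 0.05. With the replicate number as a term none of the 7 passed edgeR's test either, where 0.382% of all genes did. The median log2 change was -0.01 for the 7 genes and 0.002 for all genes tested, with 5 of the 7 negative and 2 positive. The sign was the same in both replicate numbers for 3 of the 7, INTS3, FYB and GNAS, and for 54.3% of all genes.

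**Figure D3:**
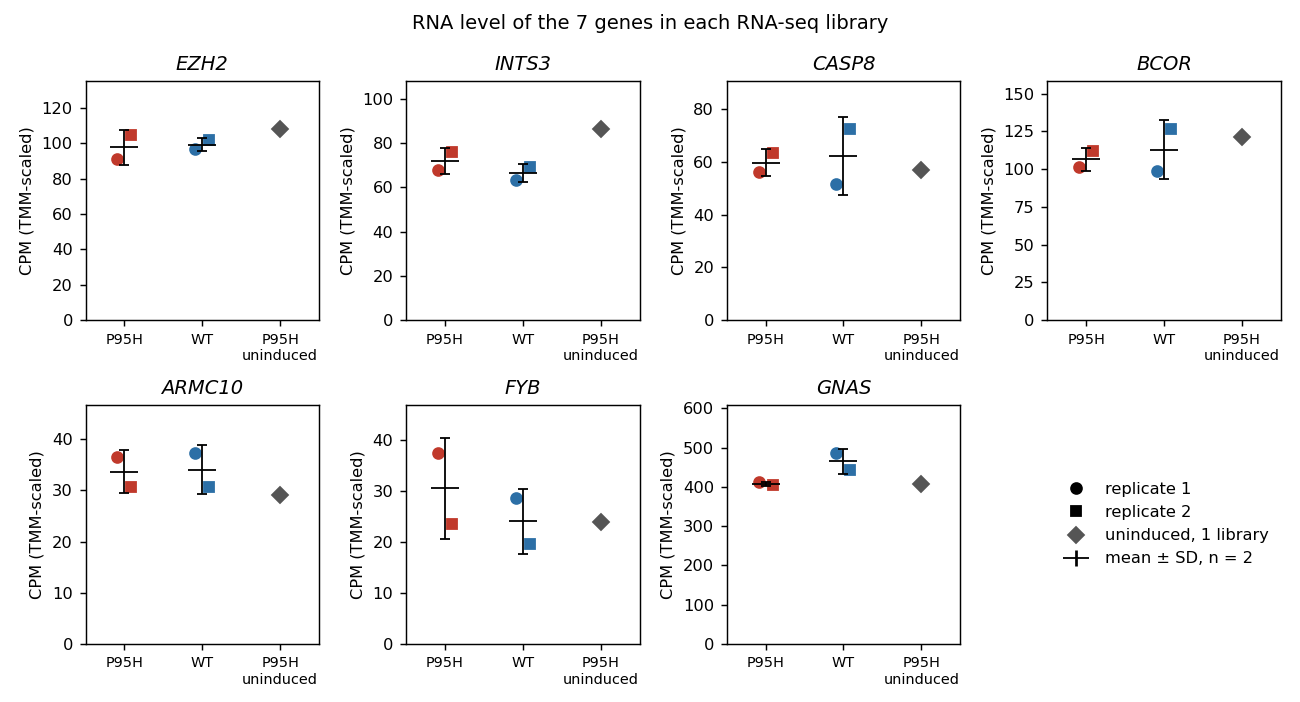
RNA level of each gene in TMM-scaled CPM on the y axis, from 0, for P95H (red), WT (blue) and the library labelled uninduced (grey). Circles are replicate 1, squares replicate 2, and bars the mean ± SD of 2 libraries; P95H and WT overlap in 6 of the 7 genes, and GNAS is lower in both P95H libraries.

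EZH2 is the catalytic subunit of Polycomb repressive complex PRC2 and methylates a lysine of histone H3 (ENSG00000106462, chromosome 7, 148807383 to 148884321, minus strand). It stood at 90.9 and 105 CPM in P95H and at 96.6 and 102 CPM in WT, against 108 CPM in the library labelled uninduced. The P95H libraries enclosed the WT ones. The log2 change against WT was -0.01 (SE 0.11, 95% interval -0.29 to 0.27), at -0.09 within replicate 1 and 0.04 within replicate 2. A lower EZH2 RNA level in P95H was therefore not detectable, and the interval leaves room for a fall of up to 0.29.

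BCOR, a corepressor of BCL6 and a part of the variant Polycomb complex PRC1.1, stood at 101 and 112 CPM in P95H and at 98.9 and 127 CPM in WT (ENSG00000183337, chromosome X, 40049815 to 40177329, minus strand). The library labelled uninduced had 121 CPM. The WT libraries lay on either side of the P95H ones, and the difference was 0.03 in replicate 1 and -0.18 in replicate 2. The fitted log2 change was -0.07 (SE 0.14, 95% interval -0.42 to 0.28).

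INTS3 RNA stood at 67.8 and 75.9 CPM in P95H and at 63.4 and 69.1 CPM in WT, against 86.4 CPM in the library labelled uninduced. It was higher in P95H within both replicate numbers, by 0.10 and 0.14 on the log2 scale, though P95H replicate 1 lay below WT replicate 2. The log2 change was 0.13 (SE 0.11, 95% interval -0.15 to 0.40, edgeR adjusted p 0.9999). The 2 windows higher in P95H thus stood beside an RNA level whose difference did not pass. INTS3 shares its last bases with SLC27A3 on the same strand, which had 463 to 798 counts, and how reads in the shared stretch were assigned is not given.

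GNAS RNA stood at 411 and 404 CPM in P95H and at 487 and 443 CPM in WT, against 407 CPM in the library labelled uninduced. It was the member whose P95H and WT libraries did not overlap, as was the case for 24.2% of all genes tested. The P95H libraries averaged 408 ± 5.24 CPM and the WT libraries 465 ± 31.6 CPM (SD, n = 2 each). The log2 change was -0.18 (SE 0.11, 95% interval -0.45 to 0.09, edgeR adjusted p 0.9999), at -0.24 in replicate 1 and -0.13 in replicate 2. GNAS thus had a window higher in P95H and an RNA level that was lower in both P95H libraries without passing. The antisense gene GNAS-AS1 overlaps the 5′ part of the locus with 74 to 158 counts, a small part of the GNAS counts if strand was not used.

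FYB encodes an adaptor that links antigen receptors of T cells and receptors of platelets to integrin activation (ENSG00000082074, chromosome 5, 39105236 to 39274528, minus strand). It stood at 37.6 and 23.5 CPM in P95H and at 28.6 and 19.6 CPM in WT, against 24.0 CPM in the library labelled uninduced. FYB was higher in P95H within both replicate numbers, by 0.40 and 0.26 on the log2 scale. Both replicate 1 libraries exceeded their replicate 2 counterparts, by more than genotype did: replicate 2 minus replicate 1 was -0.67 in P95H and -0.54 in WT. The log2 change was 0.35 (SE 0.27, 95% interval -0.30 to 1.01, edgeR adjusted p 0.9999), the widest interval of the 7. With P95H replicate 1 left out it was -0.03, and with P95H replicate 2 left out it was 0.64. Each of these fits leaves 1 replicate number with a single genotype, so the difference between replicate numbers enters the estimate. The summed level of 6 lymphoid markers was 6.44 and 5.81 CPM in P95H and 4.06 and 4.31 CPM in WT, with none of the 6 at 0 in all libraries and 5 under 1 CPM everywhere. In the library labelled uninduced that sum was 6.61 CPM, the highest of the 5, where FYB stood at 24.0 CPM. The 6 myeloid markers summed to 10.2 and 7.57 CPM in P95H and 11.6 and 7.24 CPM in WT, higher in replicate 1. The 10 erythroid and megakaryocyte markers summed to 2116 and 2764 CPM in P95H and 2107 and 3042 CPM in WT, lower in replicate 1. The 6 epithelial and fibroblast markers summed to under 1 CPM in every library. The part of any of these markers in the FYB difference was not tested. Fewer cells of a type and less RNA per cell cannot be told apart in bulk libraries.

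CASP8, the initiator caspase of death receptor signalling, stood at 56.1 and 63.3 CPM in P95H and at 51.8 and 72.6 CPM in WT (ENSG00000064012, chromosome 2, 201233443 to 201287711, plus strand). The library labelled uninduced had 57.1 CPM. The genotypes differed by 0.12 in replicate 1 and by -0.20 in replicate 2, so the sign turned with the replicate number. The fitted log2 change was -0.05 (SE 0.18, 95% interval -0.48 to 0.38), within the gap of 0.49 between the WT libraries.

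ARMC10, an armadillo-repeat protein of mitochondria, stood at 36.6 and 30.7 CPM in P95H and at 37.4 and 30.7 CPM in WT (ENSG00000170632, chromosome 7, 103074881 to 103099764, plus strand). The library labelled uninduced had 29.1 CPM. Its replicate 2 libraries were lower than its replicate 1 libraries by 0.25 in P95H and 0.28 in WT, while same-numbered libraries of the genotypes differed by -0.03 and 0.0008. The fitted log2 change was -0.0064 (SE 0.15, 95% interval -0.37 to 0.36). Its values were thus ordered by replicate number and not by genotype.

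**Figure D4:**
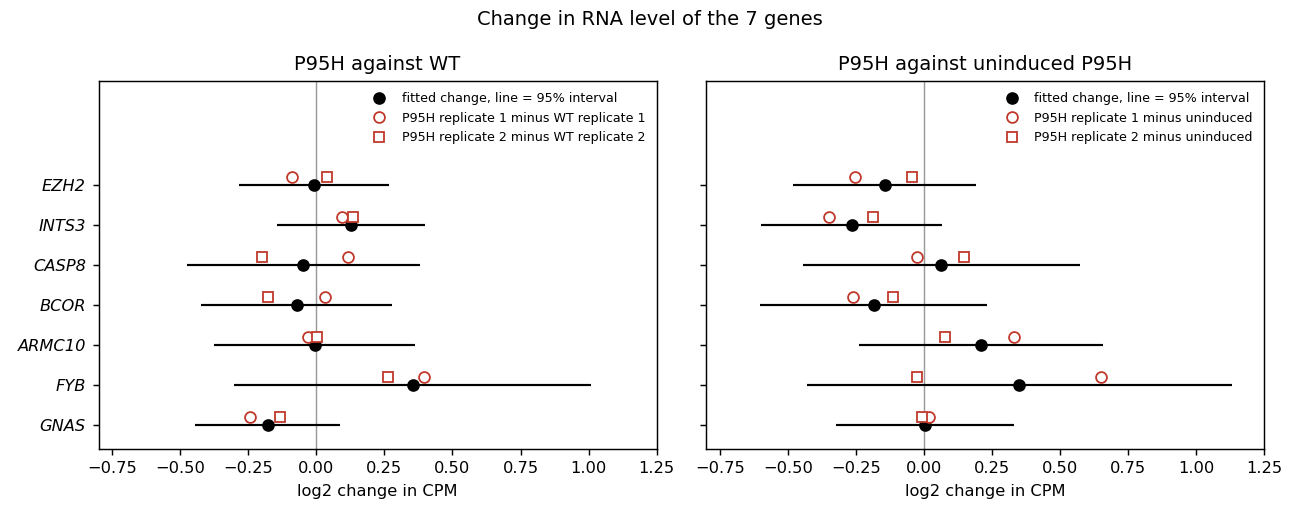
Log2 change in CPM on the x axis for each gene, P95H against WT on the left and P95H against the library labelled uninduced on the right. Black points are edgeR estimates fitted on group alone with 95% intervals, open symbols the differences of single P95H libraries, and each of the 14 intervals includes 0. With the replicate number as a term, not drawn here, the intervals against WT exclude 0 for FYB (0.15 to 0.54) and GNAS (-0.33 to -0.027). In that fit 1859 of all 22007 genes had an unadjusted p under 0.05 by edgeR, and neither gene passed after adjustment.

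Set against the library labelled uninduced, P95H libraries likewise showed no member past edgeR's test, which was fitted on group alone over 23970 genes where the spread comes from the groups with 2 libraries. The test called 0 of all genes (0%), and 818 had an unadjusted p under 0.05. DESeq2 called 8 genes (0.0334%), none of them among the 7. INTS3 had the lowest log2 change at -0.27 (SE 0.14, 95% interval -0.60 to 0.07), and both P95H libraries, at 67.8 and 75.9 CPM, lay below the 86.4 CPM of the library labelled uninduced. FYB had the highest at 0.35 (SE 0.33), with P95H replicate 1 higher by 0.65 and P95H replicate 2 at -0.03. EZH2 stood at -0.14, BCOR at -0.19, ARMC10 at 0.21, CASP8 at 0.06 and GNAS at 0.0043, a median of 0.0043 for the 7 against 0.0016 for all genes. This comparison shares its P95H libraries with the one against WT.

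Calls against the library labelled uninduced rested on the replicate number it was given in a fit with that number as a term, since its label carries none. With that library set among the replicate 1 libraries, the fit called 4 of the 7 by edgeR, where 15.4% of all genes were called. They were FYB at 0.62 (adjusted p 6.86e-05), INTS3 at -0.34 (adjusted p 0.0142), BCOR at -0.31 (adjusted p 0.0193) and ARMC10 at 0.34 (adjusted p 0.045). Set with replicate 2, whose mitochondrial share is like its own, the same fit called none of the 7, where 3.61% of all genes were called, and FYB stood at 0.0076.

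The partners of the 7 genes were read from 9 lists of complexes and pathways, with 89 of 92 symbols matched and 83 tested. No member of any list passed edgeR's test on group alone in P95H against WT or against the library labelled uninduced. Both tests called 0 of all genes (0%), so the lists do not differ from that share. The 10 PRC2 partners of EZH2 had a median log2 change of -0.01, and the largest difference was -0.16 (SE 0.13) for PHF19, which recruits PRC2 to chromatin. The 9 tested PRC1.1 partners of BCOR had a median of -0.04, with USP7, a deubiquitinase, at -0.23 (SE 0.20). The 16 tested genes of the Integrator list had a median of -0.04 with 13 negative. That list also holds NABP1, a single-strand DNA binding partner of INTS3, together with NABP2 and INIP. NABP1 stood at 0.24 (SE 0.11), in the other direction.

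Death receptor partners of CASP8 had a median of -0.06 over 11 genes, with the adaptor TRADD at -0.31 (SE 0.32). FYB partners had a median of 0.04 over 7 genes, with SKAP2, an adaptor that binds FYB, at -0.18 (SE 0.13), opposite in sign to FYB. Of 14 Gs signalling genes 12 were negative at a median of -0.05, with PRKAR2A, a regulatory subunit of protein kinase A, at -0.16 (SE 0.11). The 3 tested armadillo relatives of ARMC10 had a median of 0.05, with ARMCX3, a mitochondrial protein, at 0.06 (SE 0.13). The 10 nonsense-mediated decay factors had a median of 0.01, with SMG8, a regulator of the SMG1 kinase, at -0.17 (SE 0.17). The median of all genes was 0.002.

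Windows were also listed for genes of the partner lists. Of the listed genes 21 had 79 windows in the authors' deposited table, 28 higher and 51 lower in P95H, and overlapping windows merged into 44 regions. That is 22.8% of the 92 listed genes, close to the 20.2% above, and 35.4% of their windows were higher in P95H, against 22.3% of all windows. Among Integrator subunits the authors' deposited table lists 8 windows higher in P95H, 5 of INTS6 in 3 regions and 3 of ASUN in 2 regions, and 1 lower, of INTS10. Of the PRC2 partners 5 had windows, 6 higher and 8 lower, of which AEBP2, a DNA-binding cofactor, held 2 higher in 1 region and 6 lower in 2 regions. Death receptor and armadillo genes had none. In the authors' deposited table nonsense-mediated decay factors had 8 windows higher and 16 lower, where 77.7% of all windows were lower. The 8 higher were 5 of SMG6, 2 of UPF2 and 1 of SMG1, which also had 2 lower. All 8 windows of UPF3A, in 5 regions, and all 6 of UPF3B, in 1 region, were lower in P95H in the authors' deposited table. These paralogs bridge the exon junction complex to UPF2. The most strongly bound UPF3A window stood at 11.87 CPM in P95H (SEM 10.18) and 23.56 CPM in WT (SEM 20.09).

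HNRNPA2B1, an RNA-binding protein itself reported as mis-spliced with mutant SRSF2, had 13 windows lower, in 7 regions, and 1 higher in P95H in the authors' deposited table, where 77.7% of all windows were lower. In the authors' deposited table its lower windows ran from -1.15 to -5.16 on the log2 scale. Its most strongly bound window in the authors' deposited table stood at 3.73 CPM in P95H (SEM 2.43) and 10.95 CPM in WT (SEM 7.35). None of the 13 had an SEM of 0.9 or more of the mean in WT. The share of all windows lower in P95H with such an SEM was not taken, so this count has no background. HNRNPA2B1 RNA stood at 1608 and 1902 CPM in P95H and at 1635 and 1683 CPM in WT, a log2 change of 0.09 (SE 0.14). CDC25C, a cell cycle phosphatase, and CSF3R, the receptor of granulocyte colony-stimulating factor, had no window. The median log2 change in RNA of these 3 genes was 0.09, and none passed edgeR's test, which called 0 of all genes.

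Across the 5 RNA-seq libraries the gene of mean log2 CPM 5 or more most like each member was found by Pearson's r, a description over 5 points, which carry the depth and replicate number of each library. They were KIAA0141 for EZH2 (r = 0.999), TCF25 for INTS3 (r = 0.999), UBE2A for CASP8 (r = 0.998), TMEM127 for BCOR (r = 0.999), KIAA0101 for ARMC10 (r = 0.999), CFLAR for FYB (r = 0.994) and EEF2 for GNAS (r = 0.997). With 5 libraries such values are common, and from 41 genes for FYB to 320 for ARMC10 exceeded 0.95 of about 6071 compared.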

How the data were processed

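The authors deposited unnormalised read counts by Ensembl gene identifier. According to the submitters' processing notes, TopHat2 2.0.14, STAR 2.5.3a, edgeR and the build GRCh38.p3 were used, and their roles are not stated. The sources used here give neither the counting program nor its strand setting or annotation release. Per the file headers, the HITS-CLIP table holds the authors' log2 change of P95H over WT, their adjusted p-value (FDR, method not stated), and mean CPM with its SEM per genotype, all as deposited. It had 8324 entries, and 224 repeats of a position were dropped.

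Counts were filtered with filterByExpr, scaled by TMM and tested two-sided with edgeR 4.0.16 (limma 3.58.1, R 4.3.3) at a Benjamini-Hochberg adjusted p of 0.05. DESeq2 1.42.0 was an alternative. SE was the log2 change divided by the square root of F, and intervals are 95% on the moderated degrees of freedom. Log2 CPM used a prior count of 2. The fits were also run on simulated data. For the fits on group alone these data held no difference between replicate numbers, unlike the libraries here. How those fits behave under such a difference was not tested. Windows were handled in Python 3.11.15 with pandas 2.3.3 and matplotlib 3.10.9.

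The 7 genes and the lists were chosen with earlier results of these data known. Named were the 7, all their windows, and from each list the genes past the threshold or, where none passed, the largest change among genes whose mean log2 CPM reached 1. List genes were named for their windows once the values were known. Levels of different genes were not compared, since no exon lengths were used. Intervals cover the spread of these libraries, and floors of 3 counts cover counting error only. Sequence motifs were not analysed here.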

Additional observations from a re-analysis of the deposited data

How the results depend on the processing

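In P95H against WT no member passed under any alternative run, and edgeR called 0 genes in each fit that left out 1 library. All genes called were 84 with the replicate block and 15 with no filter on low counts. Same-numbered libraries deviated together (correlation 0.535), but with 2 pairs and no label on shared days the numbers are not a pairing by design. The block gave FYB 0.34 (95% interval 0.15 to 0.54, edgeR adjusted p 0.124) and GNAS -0.18 (95% interval -0.33 to -0.027, edgeR adjusted p 0.482). Both intervals excluded 0, and those of the other members included it. In the same fit 1859 of all 22007 genes tested had an unadjusted p under 0.05 by edgeR, the same limit. The block changed no member's call after adjustment over all genes. Leaving out 1 library moved EZH2 between -0.13 and 0.085, CASP8 between -0.27 and 0.21 and BCOR between -0.24 and 0.11. ARMC10 moved between -0.15 and 0.14 and FYB between -0.028 and 0.65. The signs of these estimates thus turned with the library left out. INTS3 ranged from 0.032 (without P95H replicate 2) to 0.20 and GNAS from -0.26 to -0.11. Such fits leave 1 replicate number with a single genotype, so the difference between replicate numbers enters the genotype contrast. For FYB, which differed more by replicate number than by genotype, they cannot settle the sign. Within replicate 1 and within replicate 2 FYB was higher in P95H, by 0.40 and 0.26.

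Against the library labelled uninduced, all genes called were 866 and 3685 with the replicate block under placing with replicate 2 and replicate 1, 8 with DESeq2 and 92 with no filter. Members called were 4 with the replicate 1 placing and 0 otherwise. GNAS turned to -0.037 in the replicate 2 placing and CASP8 to -0.10 in the replicate 1 placing. Without 1 P95H library FYB ran from -0.0071 to 0.65 and CASP8 from -0.027 to 0.17. The cause was not tested.

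Of the 3 HITS-CLIP windows, 2 remained at an adjusted p of at most 0.01 or a 4-fold change, 2 regions after merging, 1 on protein-coding transcripts and 0 with an SEM under 0.9 of the mean, a limit added after the values were seen. The motif alternatives were not run, since no genome was used. HITS-CLIP depth per sample is unknown.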
